A study of Mus musculus with 24 samples.

Results

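Genes of dietary fat absorption and chylomicron assembly were followed in mouse small intestinal organoids. The set held 10 of the 54146 genes in the count tables, taken by symbol and identified by Ensembl ID: Apoa1, Apoa4, Apob, Apoc3, Mttp, Fabp1, Fabp2, Cd36, Dgat1 and Mogat2. The study asked what is lost when CDK8 and CDK19, the kinases that associate with the Mediator complex, are removed or inhibited. There were 24 RNA libraries from 2 experiments, and every group had 3. In the genotype experiment the groups were WT, organoids lacking Cdk8 (Cdk8-/-), organoids lacking Cdk19 (Cdk19-/-) and a double knockout, and all 4, WT included, spent 7 days in 600 nM 4-hydroxytamoxifen before RNA was taken. In the Senexin B experiment, organoids that the study describes as wild type were kept for 16 h or 24 h in DMSO or in Senexin B, an inhibitor of both kinases. According to the methods of the study, Cdk8 was deleted from lox/lox alleles by CreERT2 under the Villin promoter, which is active in intestinal epithelium, and organoids were also obtained from Cdk8 lox/lox mice without Cre. Cdk19 was mutated with the lentiCRISPRv2 vector and a guide against exon 1, followed by antibiotic selection and clonal expansion of picked organoids, so a knockout line can be 1 clone. The labels name biological triplicates without saying which cultures or mice they came from, and p-values therefore measure the spread between these libraries.

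Enterocytes take up the fatty acids and monoacylglycerol released from dietary fat, rebuild them into triglyceride at the endoplasmic reticulum, and load the triglyceride onto apolipoprotein B-48. CD36 binds long-chain fatty acids at the cell surface, and the fatty acid binding proteins FABP1 and FABP2 carry them inside the cell. MOGAT2 and DGAT1 catalyse the last steps of triglyceride synthesis from monoacylglycerol. The microsomal triglyceride transfer protein, encoded by Mttp, lipidates apolipoprotein B, and the resulting chylomicron carries apolipoproteins A-I, A-IV and C-III on its surface when it is secreted to the lymph. Apoc3 lies between Apoa1 and Apoa4 in a conserved cluster, and apolipoprotein C-III slows the clearance of triglyceride-rich particles.

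All 10 genes passed the filter on low counts in both experiments, among 15602 genes tested in the genotype experiment and 15467 in the Senexin B experiment. Genes held 14636861 to 15473180 counted reads in each genotype library and 27075937 to 28405118 in each Senexin B library. The genotype libraries carried no strand information, with 49.6 to 49.7% of stranded counts in the column used, against 87.9 to 90.5% in the Senexin B libraries. This matters most for Apoa4, of whose exons 1266 bp overlap exons on the opposite strand, and for Mttp with 589 bp and Mogat2 with 55 bp. In the other 7 genes no exonic overlap was found. The genotype samples are labelled with the cell type 4T1, a mouse mammary carcinoma line, although their tissue label is intestinal organoids. In the genotype libraries the mammary markers summed to at most 7.78 CPM (normalised counts scaled to the library total). Their sum was at most 0.882 CPM in the Senexin B libraries. Whether 4T1 cells express these markers was not tested. General epithelial markers, which do not separate intestine from other epithelia, summed to 6981.53 CPM or more and 8492.24 CPM or more. Enterocyte markers summed to 6240.07 CPM or more in the genotype libraries and 3857.35 CPM or more in the Senexin B libraries. The mammary sum was 0.838 to 1.14 CPM in WT and 0.595 to 1.01 in Cdk19-/- libraries but 3.21 to 7.65 in Cdk8-/- and 3.004 to 7.78 in the double knockout, and in each genotype 4 or 5 of the 8 markers were at 0 in every library. Of the 2 tested, Ltf (lactoferrin) was called higher in Cdk8-/- at a log2 fold change of 2.31 and in the double knockout at 2.27, and Csn3 in the double knockout at 3.76, a call lost without double knockout replicate 3 and Cdk19-/- replicate 1. Their part in the lipid gene values was not tested. Liver markers, tested because the apolipoproteins are also made there, summed to at most 92.8 and 38.2 CPM. Cdk19 had 711, 749 and 726 normalised counts in WT, but 729 in the library labelled Cdk19-/- replicate 1 and 773 in that labelled double knockout replicate 3, against 355 to 422 in the other 4 libraries labelled as lacking it. The study reports a deletion at the Cdk19 guide site by sequencing, with loss of the protein by Western blot and of the mRNA by qPCR. Gene counts alone do not settle the genotype of these 2 libraries. The calls of the 10 genes and the list counts of the double knockout are therefore also given without them. Cdk8 gene counts did not fall in the libraries labelled Cdk8-/-, with 685, 857 and 634 counts against 635, 646 and 534 in WT. A sum of reads over all exons does not show the deletion of an exon.

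In GRCm38, Apoa1 (ENSMUSG00000032083, plus strand, chr9:46228580-46230466), Apoc3 (ENSMUSG00000032081, minus strand, chr9:46232933-46235636) and Apoa4 (ENSMUSG00000032080, plus strand, chr9:46240696-46243459) lie within 14880 bp, with gaps of 2466 and 5059 bp. The other genes lie apart, Apob at chr12:7977648-8016835, Mttp at chr3:138089854-138144968, Fabp1 at chr6:71199827-71205023, Fabp2 at chr3:122895072-122899506, Cd36 at chr5:17781690-17888801, Dgat1 at chr15:76502015-76511953 and Mogat2 at chr7:99219084-99238619. Promoter sequences are shown for Apoa1 and Apoa4, which rose together in the double knockout, and for the pair Fabp1 and Fabp2, of which Fabp2 alone was called there. They are the bases of the RefSeq windows, on GRCm38.p6, that end where the GENCODE gene begins, all on the plus strand and read 5′ to 3′, at chr9:46228380-46228579, chr9:46240594-46240695, chr6:71199629-71199826 and chr3:122894822-122895071. Capitals mark CATAAA, the reverse complement of the CDX motif TTTATG, and TGACCT, the reverse complement of the nuclear receptor hexamer AGGTCA.
Apoa1: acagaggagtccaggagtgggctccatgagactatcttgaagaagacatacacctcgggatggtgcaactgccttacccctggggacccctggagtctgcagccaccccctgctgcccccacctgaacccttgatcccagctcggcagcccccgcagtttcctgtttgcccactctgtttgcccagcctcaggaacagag
Apoa4: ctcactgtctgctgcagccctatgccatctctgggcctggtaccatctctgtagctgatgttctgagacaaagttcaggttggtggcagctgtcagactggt
Fabp1: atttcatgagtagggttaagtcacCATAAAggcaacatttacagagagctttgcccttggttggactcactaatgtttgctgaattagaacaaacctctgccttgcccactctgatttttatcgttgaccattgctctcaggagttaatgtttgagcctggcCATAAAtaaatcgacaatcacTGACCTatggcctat
Fabp2: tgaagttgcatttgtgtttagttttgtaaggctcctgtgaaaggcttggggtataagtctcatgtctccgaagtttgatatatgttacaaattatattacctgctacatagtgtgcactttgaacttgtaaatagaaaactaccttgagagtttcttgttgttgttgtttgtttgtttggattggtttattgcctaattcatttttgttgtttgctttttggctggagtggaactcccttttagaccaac
The table of RefSeq promoters held 7 of the 10 genes, and Apoc3, Dgat1 and Mogat2 were not among them. The search covered both strands of the whole 250 bases before the RefSeq start, which run past the shown stretches of Apoa1, Apoa4 and Fabp1 and lie wholly inside the GENCODE gene for Cd36 and Mttp. The bases after the RefSeq start of Cd36 were not found in a GENCODE transcript of that gene. In these windows AGGTCA was found in Fabp1 and Cd36, TTTATG in Fabp1 and Cd36, where both motifs overlap, and TATAAA in Fabp1 and Apob. Neither CAAAGTCCA, bound by HNF4 factors, nor AGATAA, bound by factors of the Gata family, was found in any of the 7. Only exact matches to these words were searched, so the absence of a word does not show that its factor has no site there. Of the 32536 promoters in the table, 14% held AGGTCA, 10.8% TTTATG, 12.3% TATAAA, 9.97% AGATAA and 0.387% CAAAGTCCA. The windows of Apoa1, Apoa4 and Fabp2 held no exact match to any of the 5 motifs. That of Fabp1 held 3 of them, of which TATAAA and a second AGGTCA lie after the shown stretch.

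Levels of different genes were compared per length, as RPKM, the counted reads scaled by the summed exon length of the gene and by the normalised library total. Fabp1, Apoa1 and Apoa4 led in WT organoids, with 1018 ± 161.5 RPKM for Fabp1, 805.5 ± 51.5 for Apoa1 and 605 ± 138 for Apoa4 (SD, n = 3). Fabp1 and Apoa1 differed by less than their summed SDs. Fabp2 followed with 228 ± 18.8, Mttp with 169.8 ± 6.73, Dgat1 with 91.7 ± 8.10, Apoc3 with 84.1 ± 12, Mogat2 with 76.0 ± 2.63 and Apob with 66.4 ± 3.23 RPKM. Cd36 was lowest at 10.5 ± 1.05 RPKM, and the neighbours Dgat1, Apoc3 and Mogat2 in this order were closer together than their summed SDs. Organoids kept in DMSO for 16 h held the same genes at both ends of the order, Fabp1 at 2111 ± 170.1 RPKM and Cd36 at 1.84 RPKM. In the double knockout Apoa4 had 1823 ± 434 RPKM, Apoa1 1675 ± 279 and Fabp1 1201 ± 799.7 (SD, n = 3), which differed by less than their summed SDs. When reads were counted regardless of strand and those shared with another gene were dropped, the level of Apoa4 was 240.3 RPKM in WT, 733 in the double knockout (where Fabp1 had 1294) and 35.4 in DMSO at 16 h, so its place in the order depends on how overlapping reads are counted. The share of counted reads on the 10 genes averaged 0.537% in WT libraries, against 1.06% in the libraries labelled double knockout, 0.761% in those labelled Cdk8-/- and 0.375% in those labelled Cdk19-/-, whose replicates 1, 2 and 3 had 0.462%, 0.308% and 0.355%. It averaged 0.325% to 0.349% in the 4 groups of the Senexin B experiment.

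Most of the pathway was higher in the double knockout. Against WT, Apoa1, Apoa4, Apob, Mttp, Fabp2 and Cd36 were upregulated (6 of 10), none was downregulated, and Apoc3, Fabp1, Dgat1 and Mogat2 were not called. In all genes tested 17.3% were called and 9.41% were upregulated. The median log2 fold change of the 10 genes was 0.83, against −0.01 over all genes. Every double knockout library was above every WT library for 8 of the 10 genes, all but Apoc3 and Fabp1, which was the case for 18.7% of all genes. In bulk RNA a change in the number of cells of a type and a change in RNA per cell cannot be told apart.

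**Figure D1:**
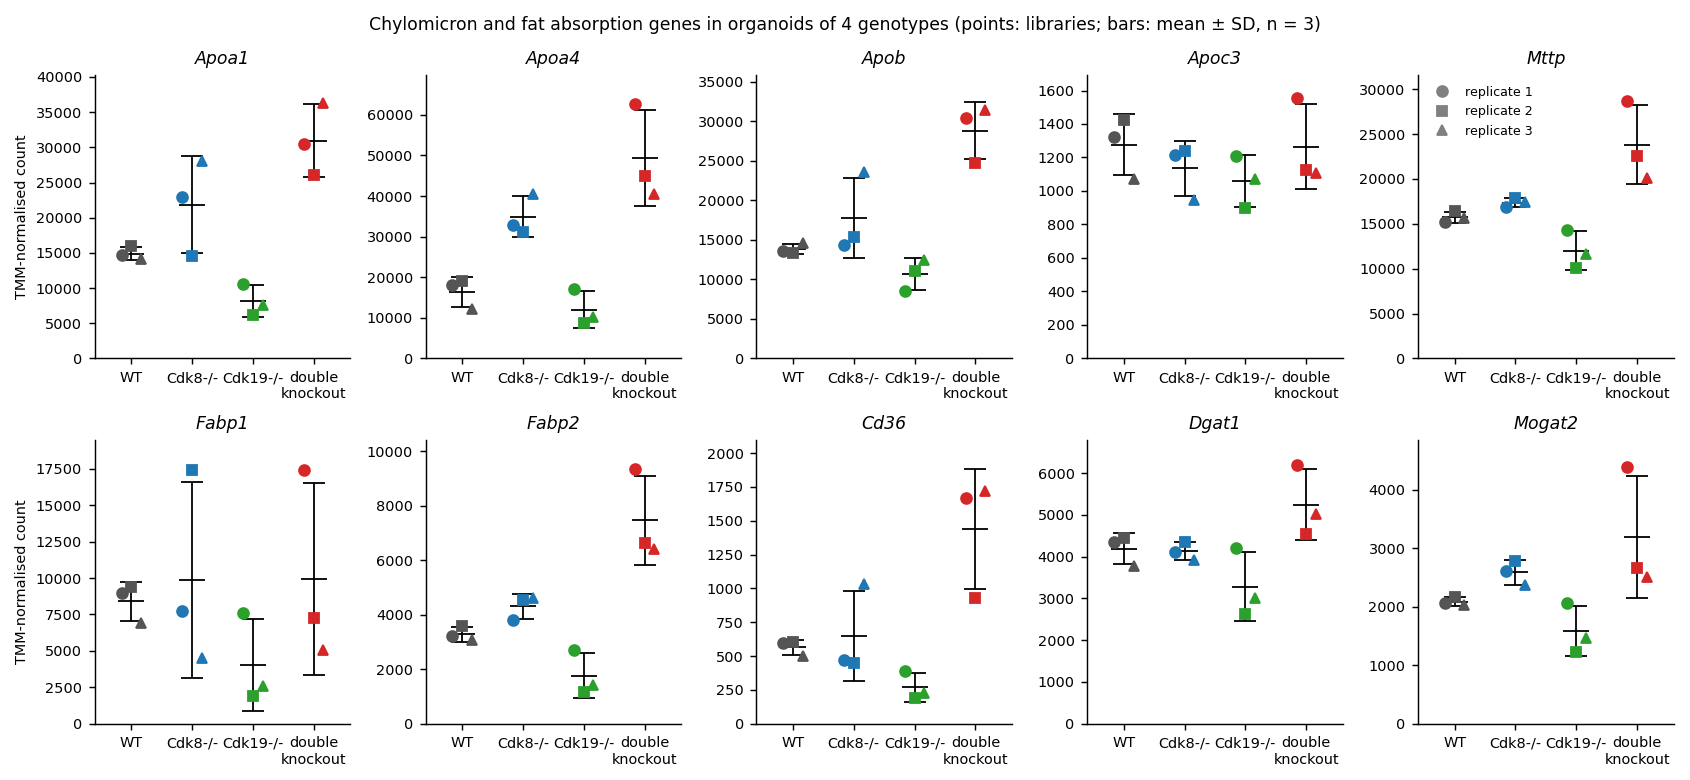
TMM-normalised counts (vertical axis, starting at 0) of the 10 genes in each library of the genotype experiment, by group, with marker shapes for replicates and black bars for the mean and SD of 3 libraries. Apoa4 lay between 40506 and 62799.9 in the double knockout and between 12141 and 19054 in WT, whereas the groups overlapped for Apoc3 and Fabp1.

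Among the apolipoproteins, Apoa4, which encodes a surface protein of nascent chylomicrons, changed most. Its normalised counts were 18050.4, 19054 and 12141 in WT and 62799.9, 45047 and 40506 in the double knockout. The groups lay far apart, and the log2 fold change was 1.59 (SE 0.265, edgeR adjusted p = 0.00245), which is 3.01-fold. Apoa1, encoding the main protein of high-density lipoprotein, had 14639, 15927 and 14069 counts in WT and 30513, 26015 and 36305 in the double knockout. No double knockout library fell within the WT range, and the fold change was 2.08 (log2 1.06, SE 0.237, adjusted p = 0.0109). Apob, whose product forms the backbone of the chylomicron, had 13615, 13290.4 and 14584 counts in WT and 30392, 24645 and 31389 in the double knockout. It rose by the same factor of 2.08 (log2 1.06, SE 0.191, adjusted p = 0.00366). Apoc3 was unlike its neighbours in the cluster. It had 1325, 1427 and 1073 counts in WT and 1557, 1126 and 1108 in the double knockout, with overlapping groups and a log2 fold change of −0.01 (SE 0.164, adjusted p = 0.965).

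Mttp, which acts with apolipoprotein B in particle assembly, had a smaller fitted fold change than Apob, a difference between genes that was not tested. Its counts were 15165, 16404 and 15665 in WT and 28721, 22567 and 20152 in the double knockout, which did not overlap, with a log2 fold change of 0.60 (SE 0.145, adjusted p = 0.016). The call of Mttp was lost without WT replicate 1 (adjusted p = 0.0677).

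Of the genes for fatty acid uptake and transport, Fabp2 and Cd36 were called and Fabp1 was not. Fabp2, the intestinal fatty acid binding protein, had 3217, 3585 and 3056 counts in WT and 9345, 6626 and 6415 in the double knockout. The double knockout was higher in every library, by 2.27-fold (log2 1.18, SE 0.258, adjusted p = 0.00944). Cd36 had 593, 602 and 500.0 counts in WT and 1669.8, 932 and 1719 in the double knockout, with replicate 2 lower than the other two. Its log2 fold change was 1.35 (SE 0.345, adjusted p = 0.0201), but it was called in only 1 of the 6 fits that left out 1 library of these groups (adjusted p from 0.0143 to 0.0694). Fabp1, the liver-type fatty acid binding protein, had 8992, 9355 and 6884 counts in WT and 17452, 7265 and 5065 in the double knockout. The 3 double knockout libraries lay on both sides of WT, and the log2 fold change of 0.24 carried an SE of 0.583 (adjusted p = 0.813).

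Neither enzyme of triglyceride synthesis was called, although both groups of libraries were separate. Mogat2 had 2061, 2166 and 2028 counts in WT and 4385, 2667 and 2499.6 in the double knockout, with most of the distance set by replicate 1 (log2 0.61, SE 0.211, adjusted p = 0.0657). Dgat1 had 4356, 4445 and 3764 counts in WT and 6185, 4535 and 5018 in the double knockout (log2 0.32, SE 0.162, adjusted p = 0.189). Double knockout replicate 1 was the highest of its group for 7 of the 10 genes, and replicate 3, with Cdk19 at the WT level, was the lowest for 6 and the highest for 3. Without that library and Cdk19-/- replicate 1, 7 genes were called in the double knockout, with Mogat2 gained (log2 0.76, adjusted p = 0.0147), in a fit that called 19% of all genes. Apoa1, Apoa4, Apob and Fabp2 kept their calls in 6 of 6 fits that left out 1 library each.

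Genes around the 10 moved in the same comparison by list. Among 9 other genes of triglyceride and cholesteryl ester synthesis, 5 rose and 0 fell (median log2 fold change 0.58), where 9.41% of all genes rose and 7.9% fell. They were Lpin1, a phosphatidate phosphatase, at 1.62, Gpat3, an acyltransferase of the glycerol-phosphate route, at 1.00, Soat2, which esterifies cholesterol, at 0.95, Lpin3 at 0.72 and Dgat2 at 0.58. Of 11 tested genes for other chylomicron proteins and assembly steps, 3 rose and 1 fell (median 0.34). Apobec1, the editing enzyme that creates the stop codon of apolipoprotein B-48, rose by 1.19 on the log2 scale, Tm6sf2 by 0.76 and Surf4, a cargo receptor of the endoplasmic reticulum, by 0.34, whereas Apoe fell by 0.91. Of 12 genes of lipid uptake and activation 3 rose and 0 fell (median 0.15): Npc1l1, the sterol transporter, at 0.93, Acsl5 at 0.81 and Slc27a4 at 0.79, both of which activate long-chain fatty acids. Among 9 lipid droplet and lipolysis genes 4 rose and 0 fell (median 0.38), namely Abhd5 at 0.77, Cidec at 0.62, Cideb at 0.43 and Plin3 at 0.38. Among transcription factors of enterocytes and lipid genes, Ppard rose at 0.43, while Mlxipl at −0.65 and Klf5 at −0.38 fell. Without Cdk19-/- replicate 1 and double knockout replicate 3, 6 synthesis genes rose and 0 fell, 5 assembly genes rose and 1 fell, 5 uptake genes rose and 0 fell and 4 droplet genes rose and 0 fell, where 10.3% of all genes rose and 8.69% fell.

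Markers of enterocytes, the cells that express these genes, moved with them. Of 18 enterocyte markers 12 rose and 0 fell in the double knockout (median 0.89), led by Krt20 at 1.88, Lct, encoding lactase, at 1.61, Anpep at 1.49 and Mep1a at 1.38. Their summed level was 7933.25, 8249.6 and 8206.58 CPM in WT and 15909.2, 12503.7 and 12845.3 CPM in the double knockout. Every double knockout library had a higher marker sum than every WT library. Of 10 stem cell markers 0 rose and 7 fell (median −0.50), with Lgr5 at −1.23, Ascl2 at −1.04 and Cdca7 at −0.97, and their sum was 3184.01 to 3210.87 CPM in the double knockout and 4051.59 to 4437.96 CPM in WT. Paneth cell markers rose for 6 of 7 genes (median 1.20) and goblet cell markers for 2 of 8, while 2 of 5 tuft cell markers fell, beside 9.41% of all genes higher and 7.9% lower. Of 6 ileal genes 3 rose, with the bile acid transporter genes Slc10a2 at 2.25, Slc51b at 1.92 and Slc51a at 0.83. Of 8 genes of the proximal small intestine 3 rose and 2 fell, among them Lct at 1.61, Slc46a1 at 0.97, Cybrd1 at −5.11 and Adh1 at −0.94. Without the 2 libraries 14 enterocyte markers rose and 0 fell, 7 stem cell markers fell, 4 Paneth and 4 goblet cell markers rose, 3 tuft cell markers fell and 3 ileal genes rose, and of the proximal genes 4 rose and 1 fell, with the call of Adh1 lost. The part of these other markers in the rise of the lipid genes was not tested. The summed CPM of the 10 genes divided by that of the enterocyte markers was 0.601 to 0.700 in WT and 0.757 to 0.812 in the double knockout, without overlap. It was 0.725 to 0.833 in Cdk8-/- and 0.471 to 0.615 in Cdk19-/- libraries.

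**Figure D2:**
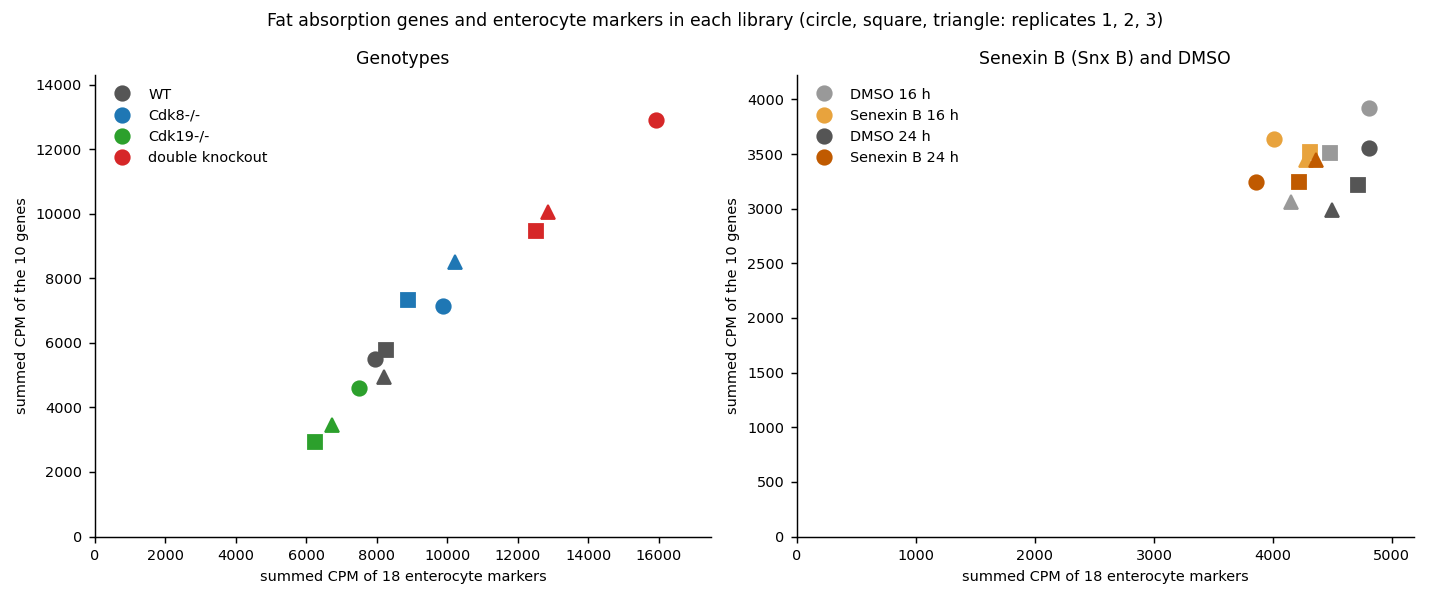
Summed level of the 10 lipid genes (vertical axis, CPM) against the summed level of 18 enterocyte markers (horizontal axis, CPM), with 1 point per library. Double knockout libraries lie at 12503.7 CPM of markers or more, to the upper right of all others, and the Senexin B experiment spans 2985.63 to 3916.46 CPM of the lipid genes.

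In Cdk8-/- organoids Apoa4 was upregulated and no other gene of the set passed the threshold. Apoa4 had 32800.5, 31222 and 40594 counts in Cdk8-/- organoids, all above WT (log2 fold change 1.09, SE 0.261, adjusted p = 0.0357), and this call was lost in 5 of the 6 fits that left out 1 library (adjusted p from 0.0479 to 0.125). In this comparison 5.15% of all genes were called and 2.79% were upregulated. Apoa1 had 22943, 14498 and 28092 counts (log2 0.55, adjusted p = 0.197), and its replicate 2 was at the WT level. The groups were separate, with Cdk8-/- above WT, for 4 of the 10 genes, namely Apoa4, Mttp, Fabp2 and Mogat2, as they were for 14.9% of all genes. Apoc3 with a log2 fold change of −0.17 and Dgat1 with −0.02 were the values below 0, and the median of the set was 0.27 against 0.01 over all genes. Relative to its mean, Fabp1 varied most between the libraries, with 7722, 17439 and 4505 counts, and Cd36 had 472, 446 and 1033. Of the 18 enterocyte markers only Anpep was called, while their sum was 8890.53 to 10202 CPM, above WT in every library. Paneth cell markers rose for 7 of 7 genes (median 1.62) and goblet cell markers for 2 of 8, Muc2 at 0.98 and Agr2 at 0.90, and of 10 stem cell markers Lgr5 at −0.86 and Cdca7 at −0.48 fell. Their part in the lipid gene values was not tested.

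In the libraries labelled Cdk19-/- every gene of the set had a log2 fold change below 0 against WT, and none was called by edgeR, as 0% of all genes were. An unadjusted p-value under 0.05 was reached by 5 of the 10, all lower, against 5.76% of all genes lower at this level, and DESeq2 called 2, as it did 1.87% of all genes. A value below 0 was seen for 54.1% of all genes. Apoa1 had 10620.0, 6164 and 7622 counts (log2 −0.87, adjusted p = 0.185), and Fabp2 had 2717, 1162 and 1408 (log2 −0.90, adjusted p = 0.2). Both stayed under the WT range in every library. Cd36 had 392, 187 and 229 counts (log2 −1.07, adjusted p = 0.263), and Fabp1 had 7637, 1916 and 2559.7 (log2 −1.06, adjusted p = 0.572). Groups were separate, with Cdk19-/- below WT, for 5 of the 10 genes and for 10.8% of all genes, and the median of the set was −0.43 against −0.02 over all genes. Replicate 1, which kept WT levels of Cdk19, was the highest of the 3 libraries for 9 of the 10 genes. Without it, Apoa1 (log2 −1.10, adjusted p = 0.0327), Fabp2 (log2 −1.34, adjusted p = 0.00325) and Dgat1 (log2 −0.56, adjusted p = 0.0499) were called lower, where 3.27% of all genes were called. Without double knockout replicate 3 as well, Mttp joined them (log2 −0.52, adjusted p = 0.0327), with 4.21% of all genes called. The summed enterocyte markers were 7485.62, 6240.07 and 6737.34 CPM, below WT in each library, and stem cell markers summed to 4868.67 to 7153.06 CPM. Without the 2 libraries 6 enterocyte markers were called lower and 5 stem cell markers higher. Also called lower were 3 of 8 goblet cell markers, 4 of 8 proximal genes, 2 of 6 ileal genes and 2 of 6 general epithelial markers. Their part in the lower lipid gene values was not tested.

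Both single knockouts thus had values on opposite sides of WT for 8 of the 10 genes, and the double knockout was set against each. Against Cdk19-/-, 8 genes were upregulated, where 25.3% of all genes were called and 14.4% upregulated. The largest log2 fold changes were those of Cd36 at 2.42, Fabp2 at 2.08, Apoa4 at 2.05 and Apoa1 at 1.93, while Fabp1 at 1.30 (adjusted p = 0.127) and Apoc3 at 0.25 (adjusted p = 0.28) were not called. Against Cdk8-/- edgeR called none of the 10, as 0.0256% of all genes were called. There 4 genes had an unadjusted p-value under 0.05 and were higher, Cd36 at 1.15, Fabp2 at 0.79, Apob at 0.70 and Mttp at 0.46, against 6.93% of all genes, and DESeq2 called 3, as it did 3.08% of all genes. The departure from additivity, taken as double knockout plus WT minus both single knockouts on the log2 scale, passed the threshold for none of the 10 genes and for 0.0256% of all genes. It was above 0 for 10 of 10 genes, against 49.4% of all genes, with an unadjusted p-value under 0.05 for 8 of them, against 8.02% of all genes above 0, and DESeq2 called 5, as it did 3.26% of all genes. With all 12 libraries the largest values were 2.22 for Cd36 (adjusted p = 0.0893), 1.69 for Fabp2 (adjusted p = 0.0843) and 1.37 for Apoa1 (adjusted p = 0.108), and the smallest was 0.42 for Apoc3. Without the 2 libraries with Cdk19 at the WT level edgeR called 7 of the 10 in this contrast, 9 against Cdk19-/- and 0 against Cdk8-/-, where 4.6%, 28.5% and 0.139% of all genes were called. Against Cdk19-/- 15.1% of all genes were then higher. These contrasts share the same 12 libraries, and they were not independent of each other.

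**Figure D3:**
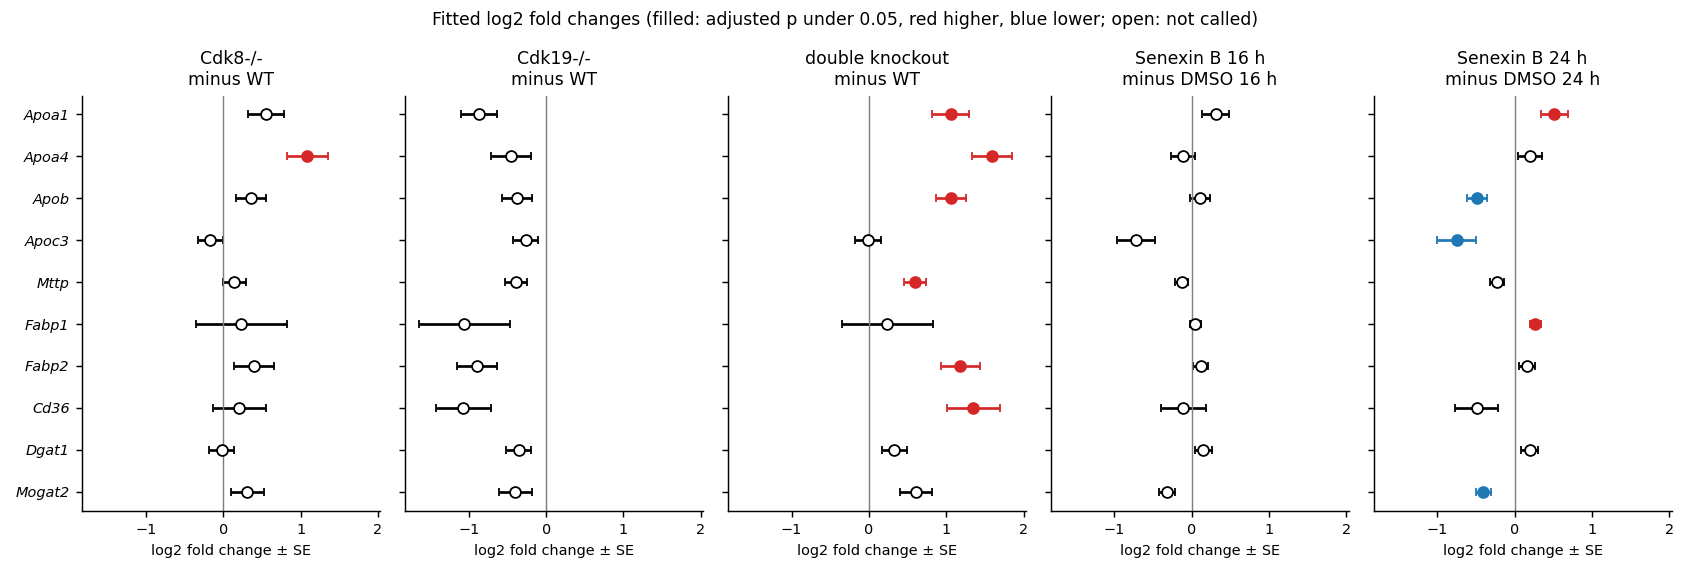
Log2 fold changes with standard errors of the 10 genes, in Cdk8-/-, Cdk19-/- and double knockout organoids against WT and in Senexin B against DMSO at 16 h and 24 h, filled where the adjusted p-value was under 0.05. The double knockout values reach 1.59 for Apoa4, and the Senexin B values lie between −0.75 and 0.51.

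With Senexin B the set was split at 24 h. Apoa1 and Fabp1 were upregulated and Apob, Apoc3 and Mogat2 downregulated against DMSO of the same time, 5 of the 10 in all. Of all genes 27.5% were called, 14.8% upregulated and 12.7% downregulated. Senexin B and DMSO libraries of the same replicate number varied together at each time. With the replicate number as a block, 8 of the 10 were called, 3 higher (Apoa1, Fabp1 and Dgat1) and 5 lower (Apob, Apoc3, Mogat2, Mttp and Cd36), in a fit that called 36.9% of all genes. The median of the set was −0.03 against 0.00 over all genes.

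**Figure D4:**
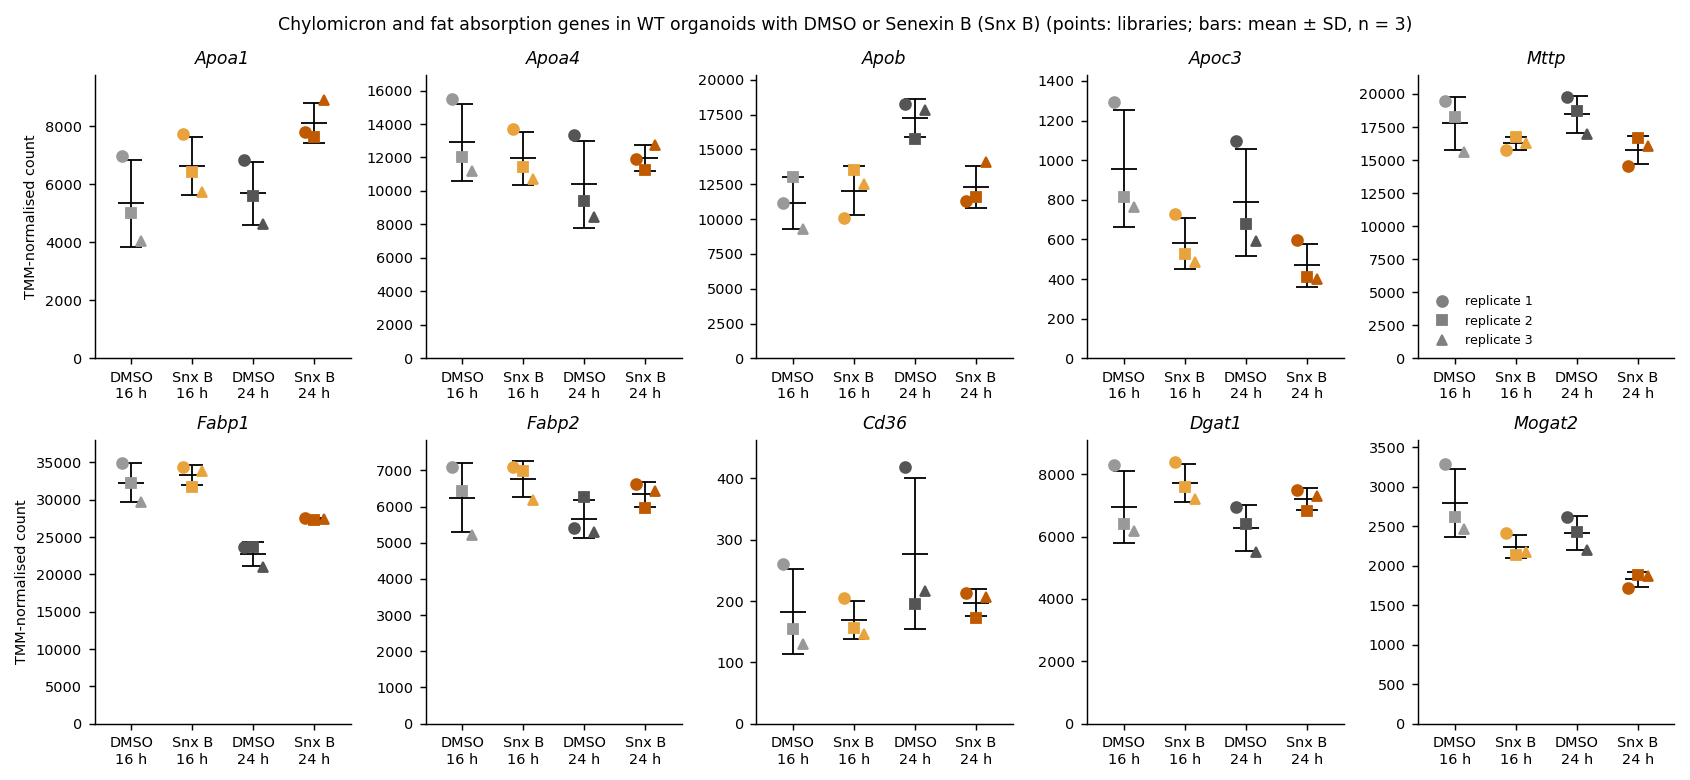
TMM-normalised counts (vertical axis, starting at 0) of the 10 genes in each library of the Senexin B experiment, by agent (Snx B is Senexin B) and time, with marker shapes for replicates and black bars for the mean and SD of 3 libraries. Apoc3 is lower with Senexin B at both times, with means of 581 and 469 counts against 958 and 788 in DMSO.

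Apoa1 had 6827, 5615 and 4643 counts in DMSO and 7806, 7644 and 8925 in Senexin B at 24 h. Every treated library was above the controls (log2 0.51, SE 0.175, adjusted p = 0.0418, and 0.54, adjusted p = 0.00242, with the block), though without the block the call held in 1 of the 6 fits that left out a library. Apoc3, its neighbour, had 1095, 677 and 591 counts in DMSO and 596, 409 and 402 in Senexin B. It was lower in each pair of the same number (log2 −0.75, SE 0.252, adjusted p = 0.04, and −0.73, adjusted p = 5.87e-06, with the block). The call held in 3 of the 6 fits without a library, and DESeq2 did not make it (adjusted p = 0.0676) nor that of Apoa1 (adjusted p = 0.0733). Apoa4 had 13341, 9409 and 8460.5 counts in DMSO and 11920.5, 11232 and 12748 in Senexin B, with overlapping groups (log2 0.20, adjusted p = 0.357). Apob had 18289, 15724 and 17800.4 counts in DMSO and 11290.3, 11552 and 14062 in Senexin B, without overlap (log2 −0.49, SE 0.129, adjusted p = 0.0126). Mttp moved in the direction of Apob by less, with 19734, 18689 and 16954 counts against 14585, 16695 and 16042 (log2 −0.23, adjusted p = 0.0624, and −0.22, adjusted p = 0.0322, with the block).

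Fabp1 had 23644, 23674 and 20929 counts in DMSO at 24 h and 27567, 27249 and 27379 in Senexin B. The groups were separate and the rise small (log2 0.27, SE 0.0721, adjusted p = 0.0139). Fabp2 was not called, with 5419.6, 6255 and 5293 counts against 6626, 5947 and 6429.6 (log2 0.16, adjusted p = 0.258). Cd36 was low, with 419, 196 and 216 counts in DMSO and 213, 172 and 206 in Senexin B, and was called only with the block (log2 −0.49, adjusted p = 0.21, and −0.43, adjusted p = 0.0391). Mogat2, the monoacylglycerol acyltransferase, had 2619, 2429 and 2193 counts in DMSO and 1719, 1887 and 1872 in Senexin B, without overlap (log2 −0.40, SE 0.102, adjusted p = 0.00992). Its partner in the pathway Dgat1 had 6957, 6395 and 5493 counts against 7491, 6815 and 7317, higher in each pair (log2 0.20, adjusted p = 0.198, and 0.21, adjusted p = 0.0369, with the block).

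At 16 h edgeR called none of the 10 genes between Senexin B and DMSO, where 7.75% of all genes were called. DESeq2 called 1, as it did 10.3% of all genes. The lowest adjusted p-values of edgeR were those of Apoc3, with 1296, 812 and 765 counts in DMSO and 728, 528 and 488 in Senexin B (log2 −0.72, adjusted p = 0.0952), and Mogat2, with 3292, 2622 and 2471 against 2414, 2138 and 2175 (log2 −0.32, adjusted p = 0.0707). Both were called with the replicate block, at −0.70 (adjusted p = 1.54e-05) and −0.31 (adjusted p = 0.0173), in a fit that called 14.8% of all genes. Over both times Apoc3 and Mogat2 were lower in 6 of 6 pairs of the same number, and Apoa1 and Dgat1 higher in 6 of 6. Replicate 3 of DMSO at 16 h was the lowest of its group for all 10 genes. At 16 h 4 of 18 enterocyte markers rose and 4 fell with Senexin B, 2 of 7 Paneth cell markers fell, and 3 of 8 goblet cell markers rose. Enteroendocrine markers rose for 3 of 7 genes, and of 10 stem cell markers 1 rose and 1 fell. The part of these markers in the lipid gene values was not tested. The difference of the 24 h and 16 h effects passed the threshold for none of the 10 genes, as for 0% of all genes. Its lowest adjusted p-values of edgeR were those of Apob at −0.60 (adjusted p = 0.269) and Fabp1 at 0.22 (adjusted p = 0.378), and DESeq2 called 0 of the 10 and 0.564% of all genes.

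Culture time in DMSO moved these same 2 genes. From 16 h to 24 h Apob rose from 11178, 13011 and 9269 counts to 18289, 15724 and 17800.4 (log2 0.63, SE 0.130, adjusted p = 0.00984), and Fabp1 fell from 34937, 32193 and 29735 to 23644, 23674 and 20929 (log2 −0.51, adjusted p = 0.00209). Of all genes 11.1% were called in this comparison. Mean Apob counts were 12047 and 12302 in Senexin B at the 2 times, beside 11153 and 17271 in DMSO. Mean Fabp1 counts were 33298 and 27398 in Senexin B at the 2 times, beside 32288 and 22749 in DMSO.

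With Senexin B at 24 h, 14.8% of all genes rose and 12.7% fell in the fit without the replicate block, and the lipid lists are given beside this. All list and marker counts of this paragraph come from that fit. In the synthesis list 2 rose and 4 fell of 9 (median −0.23), with Gpat3 at −0.70, Soat2 at −0.48, Soat1 at 0.39 and Lpin2 at −0.32 the largest. Of 11 assembly genes 1 rose and 3 fell, with Tm6sf2 at −0.61, Apobec1 at −0.47, Sec13, a coat protein of vesicles leaving the endoplasmic reticulum, at 0.35 and P4hb, the partner subunit of MTTP, at −0.19. The droplet proteins Cidec at −0.58 and Cideb at −0.49 fell, and in the uptake list Abcg5, a sterol exporter, at 0.59 and Dbi, an acyl-CoA binding protein, at 0.36 rose. Of the 15 genes of these 4 lists that were upregulated in the double knockout, 6 were downregulated here, namely Gpat3, Soat2, Tm6sf2, Apobec1, Cidec and Cideb, and 9 were not. Over all genes the share was 22.1% of 1373 genes upregulated in the double knockout and tested in both experiments. Of the 18 enterocyte markers 3 rose and 8 fell (median −0.35), with Lct at 3.64, Slc2a5 at −1.19, Mep1a at −1.06 and Enpep at 1.04 the largest, and their sum was 4810.36, 4711.46 and 4493.45 CPM in DMSO and 3857.35, 4216.4 and 4363.46 CPM in Senexin B. The summed lipid genes over the summed markers gave 0.664 to 0.739 in DMSO and 0.768 to 0.842 in Senexin B. Paneth cell markers fell for 5 of 7 genes and enteroendocrine markers rose for 5 of 7. Goblet cell markers rose for 4 and fell for 1 of 8, tuft cell markers rose for 3 of 5, and stem cell markers rose for 2 and fell for 2 of 10. Their part in the changes of the lipid genes was not tested.

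Within the chromosome 9 cluster, the ratio of Apoa4 to Apoc3 counts in the same library is free of library scaling. It was 11.3 to 13.6 in WT, 12 to 14.8 in DMSO at 16 h and 12.2 to 14.3 in DMSO at 24 h. These ratios are not comparable between the experiments, which differ in strand information. When counted regardless of strand, Apoa4 and Apoc3 had 240.3 and 91.8 RPKM in WT, but 35.4 and 33.6 in DMSO at 16 h. Cdk8-/- libraries lay at 25.2 to 42.8, double knockout libraries at 36.6 to 40.3, and Cdk19-/- libraries, at 9.42 to 14.2, overlapped WT. In Senexin B the ratio was 18.8 to 21.9 at 16 h and 20.0 to 31.7 at 24 h, above every DMSO library. In the double knockout the numerator was higher, with Apoc3 at its WT level, whereas in Senexin B Apoc3 was lower and Apoa4 overlapped the controls. The ratio of Apoa1 to Apoc3 was 11.1 to 13.1 in WT, 19.6 to 32.8 in the double knockout, 11.7 to 29.6 in Cdk8-/-, which overlapped WT, and 6.85 to 8.79 in Cdk19-/-, below WT. It was 5.28 to 6.19 in DMSO and 10.6 to 12.2 in Senexin B at 16 h, and 6.23 to 8.30 in DMSO and 13.1 to 22.2 in Senexin B at 24 h. The ratio of Fabp2 to Fabp1, the intestinal over the liver-type protein, was 0.358 to 0.444 in WT, 0.535 to 1.27 in the double knockout, 0.259 to 1.03 in Cdk8-/- and 0.356 to 0.606 in Cdk19-/-, and both single knockouts overlapped WT and the double knockout, while at 24 h it was 0.229 to 0.264 in DMSO and 0.218 to 0.240 in Senexin B. No test was run on these ratios.

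**Figure D5:**
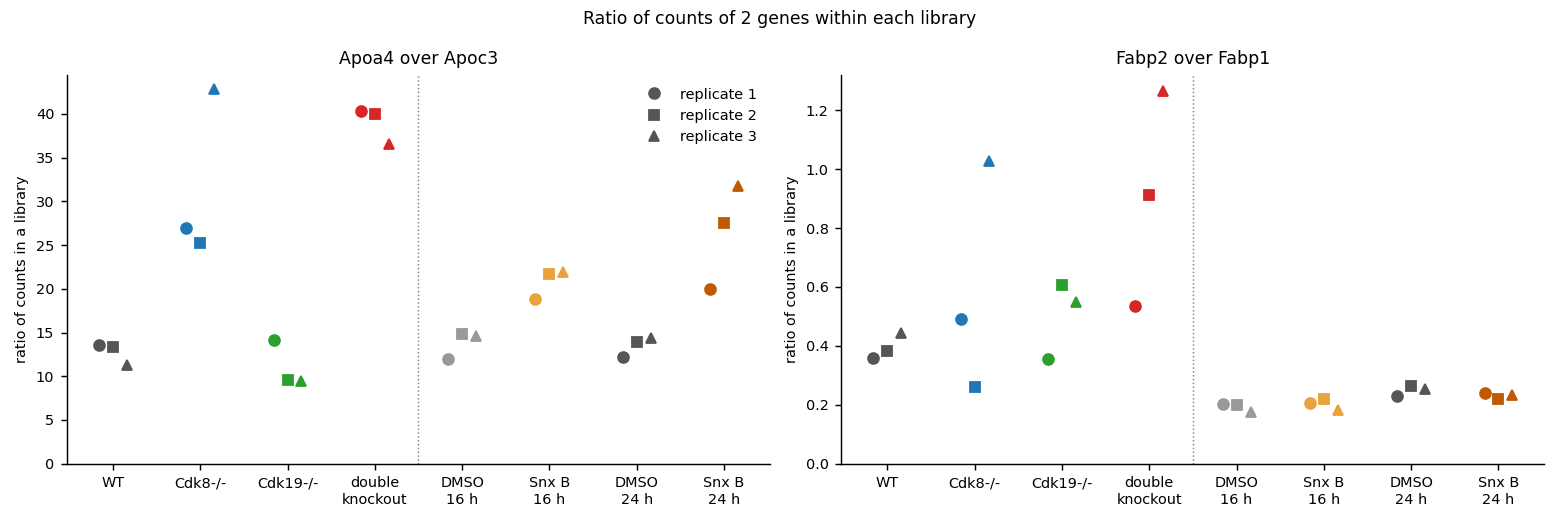
Ratio of normalised counts within each library (vertical axis) for Apoa4 over Apoc3 and for Fabp2 over Fabp1, by group (Snx B is Senexin B), with 1 point per library and marker shapes for replicates. In the genotype experiment Apoa4 over Apoc3 is 9.42 to 14.2 in WT and Cdk19-/- libraries and 25.2 or more in Cdk8-/- and double knockout libraries. In the Senexin B experiment it is 12 to 14.8 in DMSO and 18.8 or more in Senexin B libraries. The 2 experiments differ in strand information, and this ratio is not comparable between them.

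Across libraries the set varied as a block in the genotype experiment and less so with Senexin B. On log2 CPM centred within each experiment, the Pearson correlation between pairs of the 10 genes had a median of 0.822 over the 12 genotype libraries, from 0.129 (Apob and Apoc3) to 0.981 (Mttp and Fabp2). Over the 12 Senexin B libraries the median was 0.200, from −0.733 (Apob and Fabp1) to 0.873 (Apoc3 and Mogat2). Against the mean of the other 9 genes over all 24 libraries, Mttp at 0.944, Fabp2 at 0.943 and Apoa4 at 0.904 were most typical of the set, and Apoc3 at 0.333 least. Apoc3 correlated with Apoa1 at 0.323 in the genotype libraries and −0.228 in the Senexin B libraries, and with Apoa4 at 0.403 and 0.477. Apoa1 and Apoa4 correlated with each other at 0.918 and 0.565. Among 11256 other genes the profiles most like the mean of the set were those of Creb3l3, a transcription factor of the endoplasmic reticulum membrane, at 0.973, Fcgrt, the neonatal Fc receptor, at 0.968, Slc27a4, a fatty acid transport protein, at 0.964, Crat, a carnitine acetyltransferase, at 0.962, and Slc51a, a subunit of the basolateral bile acid transporter, at 0.956. The libraries share conditions and depth, so these correlations are a description of 24 libraries and carry no test.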

How the data were processed

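Gene counts were analysed as the authors deposited them, without normalisation. According to the methods of the study, single-end reads of 50 bp were aligned to GRCm38 with STAR and counted on the genes of Ensembl release 93, and the submitters' processing notes name FastQC, STAR 2.6.0c and GRCm38.p6. Column 4 of the tables, the second strand column, was used. The study describes libraries from oligo(dT) selection, while the labels of the Senexin B samples say rRNA-depleted RNA. Positions came from GENCODE vM21, which held 54079 of the 54146 genes, and all 174 listed genes were matched.

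Each experiment was fitted separately with edgeR 4.0.16 (TMM, filterByExpr, glmQLFit and glmQLFTest, R 4.3.3), in 1 model of its 12 libraries with a term per group, and p-values were adjusted by Benjamini-Hochberg over all genes tested, with calls under 0.05. Normalised counts are raw counts divided by the library total times its TMM factor, and multiplied by the mean of these products over the experiment. CPM and RPKM use the same normalised library totals. Log2 CPM used a prior count of 2. The steps were tested on simulated data, and plots were made in Python 3.11.15 (matplotlib 3.10.9). DESeq2 1.42.0, its size factors in edgeR, no filter, a filter of 10 counts in every library, unstranded counts, only the groups compared, a replicate block and leaving out libraries were the alternatives.

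Libraries of the same number deviated together from their group means between Senexin B and DMSO, with correlations of 0.303, 0.101 and 0.110 at 16 h and of 0.377, 0.137 and 0.187 at 24 h, each above 0.1. The pairing comes from these correlations alone. Between DMSO at 24 h and 16 h they were 0.366, −0.050 and 0.284, which did not meet this. No genotype comparison met this for every number. Libraries of different numbers also correlated, Senexin B replicate 2 with DMSO replicate 3 at 0.154 at 16 h and 0.147 at 24 h. Both values were above those of Senexin B replicate 2 with DMSO replicate 2, so the pairing is clearest for replicate 1.

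The 10 genes and all lists were chosen with earlier results of these data known. All 10 were named in every comparison, and from each other list up to 4 called genes with the largest log2 fold change and a mean of at least 50 normalised counts. Some members of the transcription factor list are not reported here. Also named were the 5 genes with profiles most like the mean of the set.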

Additional observations from a re-analysis of the deposited data

How the results depend on the processing

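With 3 libraries per group, single libraries decided several counts of called lipid genes. In the double knockout against WT 6 of the 10 were called, and 4 to 7 under every alternative run, with 4 without WT replicate 1. Against Cdk19-/- 8 were called, and 7 to 9 under the alternatives. In Cdk8-/- the count of 1 became 0 to 1 when a library was left out. In Cdk19-/- the count of 0 became 2 with DESeq2, 3 without a filter, 0 to 3 without 1 library (3 without Cdk19-/- replicate 1) and 4 without both libraries whose Cdk19 count was at the WT level. In the double knockout against Cdk8-/- 0 became 3 with DESeq2, 3 without a filter and 0 to 2 without 1 library (2 without Cdk8-/- replicate 3). For the departure from additivity 0 became 5 with DESeq2, 7 without a filter, 0 to 6 without 1 library (6 without Cdk19-/- replicate 1) and 7 without both libraries. Senexin B at 16 h went from 0 to 1 with DESeq2, 2 without a filter, 2 with the replicate block and 0 to 1 without 1 library. At 24 h it went from 5 to 8 with the block and 2 to 5 without 1 library (2 without Senexin B replicate 2). The difference of both effects went from 0 to 1 without a filter, and DMSO at 24 h against 16 h from 2 to 4 without a filter, 5 with the block, although its numbers did not pair the libraries, and 1 to 3 without 1 library. Among genotype comparisons the replicate block changed no count of called lipid genes. The causes were not tested. The list counts without both libraries were added after seeing the data.

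Signs turned only for values that were called under neither setting. In the double knockout against WT, Apoc3 had 0.0018 with DESeq2 size factors, 0.0025 with DESeq2, 0.051 unstranded, −0.18 to 0.086 without 1 library and 0.073 without both libraries, and Fabp1 −0.44 to 0.56 without 1 library. In the double knockout against Cdk8-/-, Fabp1 had −0.11 with the replicate block and −0.66 to 0.70 without 1 library, and Apoc3 −0.0047 to 0.26. In Cdk8-/- against WT the ranges without 1 library were −0.46 to 0.56 for Fabp1, −0.32 to 0.41 for Cd36 and −0.10 to 0.017 for Dgat1. In Senexin B at 16 h they were −0.22 to 0.040 for Apoa4 (0.016 unstranded), −0.0066 to 0.24 for Apob, −0.012 to 0.10 for Fabp1, −0.0027 to 0.21 for Fabp2 and −0.30 to 0.24 for Cd36. For the difference of both effects they were −0.036 to 0.37 for Apoa1, −0.31 to 0.29 for Apoc3, −0.052 to 0.17 for Fabp2, −0.73 to 0.044 for Cd36 and −0.096 to 0.13 for Dgat1. For DMSO at 24 h against 16 h they were −0.075 to 0.33 for Apoa1 and −0.032 to 0.12 for Mttp.

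Counts over all genes moved more. The 804 calls in Cdk8-/- became 1276 with DESeq2 and 1269 without a filter, the 0 in Cdk19-/- 298 and 479, the 4 in the double knockout against Cdk8-/- 402 and 358, the 4 for additivity 481 and 566, and the 0 for the difference of both Senexin B effects 67 and 121. With the block the 1198 calls of Senexin B at 16 h became 2293, the 4252 at 24 h 5712 and the 1719 of DMSO time 3281. With only the groups compared they were 725, 4605 and 385, and the 3953 of the double knockout against Cdk19-/- were 2867.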

Other observations

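Most genes of 4 lipid lists were higher in the double knockout than in Cdk19-/- organoids, in a comparison that called 25.3% of all genes and 14.4% as higher. Of 12 uptake and activation genes 7 were higher in the double knockout, with Npc1l1 at a log2 fold change of 1.34, Slc27a4 at 1.10, Dbi at 0.88 and Acsl5 at 0.80. Of 11 assembly genes 9 were higher and 1 lower, with Apobec1 at 1.61, Tm6sf2 at 1.24, Apoe at −1.06 and Pla2g12b at 1.00. Of 9 synthesis genes 7 were higher and 1 lower, led by Lpin1 at 1.59, Gpat3 at 1.16, Dgat2 at 1.00 and Soat2 at 0.96. Of 9 lipid droplet and lipolysis genes 5 were higher, with Abhd5 at 1.04, Cidec at 1.03, Cideb at 0.59 and Lipe at 0.51. Among transcription factors Creb3l3 was higher at 1.40 (edgeR adjusted p = 0.00149) and Mlxipl lower at −0.60, while 17 of 18 enterocyte markers were higher. Goblet cell markers were higher for 6 of 8 genes and Paneth cell markers for 5 of 7, while 8 of 10 stem cell markers were lower. Their part in the lipid gene values was not tested. Without Cdk19-/- replicate 1 and double knockout replicate 3, 8 uptake, 9 assembly, 6 synthesis and 6 droplet genes and 16 enterocyte markers were higher, where 15.1% of all genes were.

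In Cdk8-/- organoids against WT 5.15% of all genes were called. Among the lipid and transcription factor lists they were Lpin1 at 1.06, Abhd5, the activator of adipose triglyceride lipase, at 0.77, and the transcription factors Ppard at 0.64, Mlxipl at −0.82 and Hnf4g at −0.53. With Senexin B at 16 h, Gpat3 at −0.59, Soat2 at −0.50 and Soat1 at 0.37 were already called in the directions seen at 24 h, as were Abcg5 at 0.69 and P4hb at −0.35. Npc1l1 at 0.31 and Pla2g12b at −0.41 were also called at 16 h and did not pass the threshold at 24 h, and 7.75% of all genes were called at 16 h.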
